A study of Mus musculus with 8 samples.

Results

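The replication-dependent histone genes are the multicopy genes whose mouse symbols begin Hist1h, Hist2h, Hist3h or Hist4h. They were taken as all protein-coding genes with such a symbol in the GENCODE M21 annotation, matched by Ensembl ID to the count files, and grouped by symbol into the linker histone H1 and the core histones H2A, H2B, H3 and H4. The annotation holds 67 of them, and 54 were matched among the 37620 gene IDs of the files: 6 of 6 for H1, 16 of 18 for H2A, 13 of 18 for H2B, 7 of 12 for H3 and 12 of 13 for H4. The 13 unmatched genes were not analysed here. Of the 54, 43 lie on chromosome 13, 9 on chromosome 3 and 2 on chromosome 11 (GRCm38). A filter on low counts kept 50 for testing; the 4 others were Hist2h2aa1, Hist2h2aa2, Hist1h2bq and Hist2h3c1, each at 0.394 CPM (counts scaled to a fixed library total) or less in all libraries.

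RNA came from erythroid progenitors, the precursors of red cells, sorted magnetically from fetal livers of C57BL/6 mouse embryos (E14.5) and grown for 24 h with erythropoietin. All 8 libraries share this strain, tissue, stage and culture. For the knockdown of Bloodlinc, a long noncoding RNA transcribed from a super-enhancer, there was 1 control hairpin library and 1 library from each of 2 hairpins; the knockdown of hnRNPU, a nuclear RNA-binding protein, had a control hairpin library of its own and again 2 hairpins. Overexpression was measured as 1 Bloodlinc vector library beside 1 empty vector library. Nothing in the labels ties the hairpin libraries to separate cultures or animals. The p-values then cover no more than the spread between these samples, which may be technical.

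As background, these genes supply the histones that package newly copied DNA, and their mRNAs accumulate in S phase and are degraded when replication stops. Most of the mRNAs end in a conserved stem-loop, bound by the stem-loop binding protein SLBP, instead of a poly(A) tail. Erythroid progenitors divide rapidly during terminal differentiation while their chromatin condenses.

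The stem-loop is shown first, since it is the feature that most of these mRNAs have in place of a poly(A) tail. The libraries were made from total RNA depleted of ribosomal RNA and not from poly(A)-selected RNA. A search of the GENCODE M21 transcripts for the 16-base histone stem-loop found it in 38 of the 54 genes, and 68 of all 21901 protein-coding genes (0.31%) hold a match. Of these 68, 46 are among the 67 annotated histone genes, and the rest are other genes. The stem-loop was not found in 16 of the 54 genes, and 13 of those 16 have under 40 annotated bases after the stop codon. It began 22 to 59 bases after the stop codon, with a median of 32. There were 7 distinct versions, given here 5′ to 3′ on the gene's strand (GRCm38) with the stem-loop in capitals and the flanking bases in lower case.
Hist1h1c: tccaaaaGGCTCTTTTCAGAGCCaccac
Hist1h4h: aaccaaaGGCCCTTTTCAGGGCCgccca
Hist1h3e: ccaaaacGGCTCTTTTAAGAGCCacctc
Hist1h4j: ccctaaaGGTCCTTTTCAGGACCaccac
Hist2h4: ccctaacGGCCCTTTTTAGGGCCaacca
Hist2h2ac: ccaaaaaGGCTCTTTTTAGAGCCaccaa
Hist1h4a: aaccaaaGGCCCTTCTCAGGGCCgccca
The version of Hist1h1c was the most frequent, in 21 genes of H1, H2A, H2B and H3. That of Hist1h4h was in 6 genes, that of Hist1h3e in 5, and those of Hist1h4j and Hist2h4 in 2 each. The stem divided the genes by class: all 11 H4 genes with a match began with GGCCC or GGTCC, and all 27 genes of the other classes began with GGCTC. No version was shared between H4 and another class.

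Promoters were compared because H2A and H2B genes are often arranged as divergent pairs. RefSeq promoter sequences (GRCm38.p6, 250 bases before to 50 after the start) matched 50 of the 54 genes. The octamer ATTTGCAT, searched on both strands, was present in 7 of 16 H2A and 5 of 11 H2B promoters and in none of the 6 H1, 6 H3 and 11 H4 promoters, against 1.97% of all 27025 promoters. These 12 promoters hold 9 distinct sites, since 3 sites lie in both promoters of a divergent pair. One such pair is printed with 2 further windows, all of 40 bases, each on its own gene's strand with the octamer or its reverse complement in capitals.
Hist1h2ae, chr13:23571321-23571360: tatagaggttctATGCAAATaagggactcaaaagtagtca
Hist1h2bg, chr13:23571329-23571368: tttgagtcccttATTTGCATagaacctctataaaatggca
Hist1h2be, chr13:23586010-23586049: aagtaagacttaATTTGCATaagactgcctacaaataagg
Hist2h2ac, chr3:96221053-96221092: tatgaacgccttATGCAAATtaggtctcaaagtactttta
The sequence CCAAT, on either strand, was in all H1, H2A, H2B and H3 promoters matched but in 3 of 11 H4 promoters (27.3%), against 41.1% of all promoters. TATAAA was in 31 of 50 (62%), against 15.7% of all promoters, and among H3 genes in only 1 of 6. These are matches of letters and not shown binding sites.

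Histone counts were lower with the hairpins than with the control hairpin in both knockdowns. They took 0.974% of the counts in protein-coding genes in the Bloodlinc control library, and 0.523% and 0.591% with Bloodlinc hairpins 1 and 2. They took 2.53% in the hnRNPU control library, and 0.641% and 1.17% with hnRNPU hairpins 1 and 2. The empty vector and Bloodlinc vector libraries stood at 1.04% and 1.12%. In this share the 2 control hairpin libraries differed from each other by more than either Bloodlinc hairpin differed from its control. In CPM scaled by edgeR's trimmed mean of M-values (TMM), the 54 genes summed to 8621 in the Bloodlinc control library and to 3913 and 3873 with its hairpins, and to 17296 in the hnRNPU control library and to 4752 and 6515 with its hairpins. In these bulk samples, fewer cells in S phase and less histone mRNA per cell cannot be told apart.

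**Figure D1:**
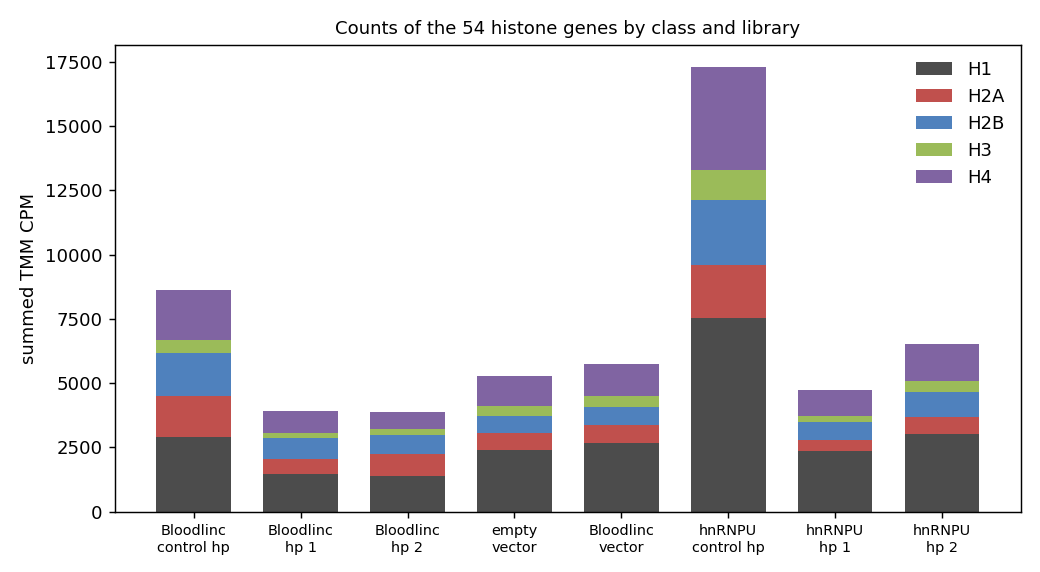
Summed TMM CPM of the 54 histone genes (y axis) in each of the 8 libraries (x axis; hp, hairpin), stacked by class. The hnRNPU control library is the highest at 17296, and both Bloodlinc hairpin libraries are the lowest, at 3913 and 3873.

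The libraries had 23682993 to 34540691 counts in genes, except for hnRNPU hairpins 1 and 2 with 2931627 and 2612916. Those 2 libraries had 89.68% and 86.64% of their uniquely placed counts outside genes, and the other 6 had 21.7% to 30.07%. A floor of 3 counts is 0.0655 to 0.154 TMM CPM in the 6 deep libraries but 1.77 and 1.18 TMM CPM in those 2. Hnrnpu RNA was at 588 TMM CPM with its control hairpin and at 325 and 373 with its hairpins, and Bloodlinc RNA was at 4.46 with its control hairpin and at 2.19 and 1.75 with its hairpins. The summed erythroid markers, 12 genes led by beta-globin, were at 85349 TMM CPM in the Bloodlinc control library and at 49334 and 42457 with its hairpins, at 63215 in the hnRNPU control library and at 101040 and 55498 with its hairpins, and at 22636 and 24862 with the empty and Bloodlinc vectors. In the Bloodlinc knockdown 12 of these 12 genes had estimates below 0, against 6850 of all 15355 genes tested, with a median log2 fold change of −0.83 and none called. The part of these erythroid genes in the histone differences was not tested either. Summed neutrophil markers (9 genes) were at 41.6 to 101 TMM CPM in the 3 Bloodlinc knockdown libraries, at 952 to 1623 in the 3 other deep libraries, and at 9290 and 3454 with hnRNPU hairpins 1 and 2; their part in the histone differences was not tested.

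In the Bloodlinc knockdown, all 50 tested genes had a lower estimate with the hairpins, and none passed edgeR's quasi-likelihood test at an adjusted p of 0.05 over the 15355 genes tested. Of all genes 0.0261% were called lower and 0.0977% higher. At an unadjusted p under 0.05, 29 of the 50 were lower, against 1.26% of all genes, and DESeq2 also called 0. Both hairpins lay below the control library in 50 of 50, against 30.7% of all genes. The median log2 fold change was −1.20, and 0.06 over all genes tested. By class the medians were −0.88 for H1, −1.17 for H2A, −1.16 for H2B, −1.19 for H3 and −1.32 for H4. Both hairpins are read against the same single control library. Against the hnRNPU control hairpin library in its place, 30 genes passed, 28 of them lower, with a median of −1.87, and 6.79% of all genes passed in either direction.

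In the hnRNPU knockdown, 14 of the 50 genes fell and none rose, with Benjamini-Hochberg adjusted p-values under 0.05 in the same edgeR fit; 0.3% of all genes were called lower. The 14 were 7 of 14 H2A genes, 3 of 12 H2B, 2 of 6 H3, 2 of 12 H4 and 0 of 6 H1. Their log2 fold changes ran from −2.98 to −1.96. At an unadjusted p under 0.05, 40 of the 50 were lower, against 4.86% of all genes. Both hairpins lay below the control in 46 of 50, against 42.3% of all genes. The median over the 50 was −1.74, and −0.09 over all genes tested; it was −1.72 with the 4 genes that had 0 counts in a hairpin library set to the floor. The class medians were −1.60 for H1, −2.03 for H2A, −1.65 for H2B, −1.83 for H3 and −1.71 for H4. The count was 0 without hnRNPU hairpin 1, 4 without hnRNPU hairpin 2, 7 and 9 without Bloodlinc hairpin 1 or 2, which enter through the shared spread, 7 without all 3 Bloodlinc knockdown libraries, 8 in a fit of the 3 hnRNPU libraries alone, 0 against all 3 control libraries pooled, and 9 with DESeq2. Against the Bloodlinc control hairpin library in place of its own, 17 passed, 15 of them lower, with a median of −0.73, and 15.2% of all genes passed in either direction.

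**Figure D2:**
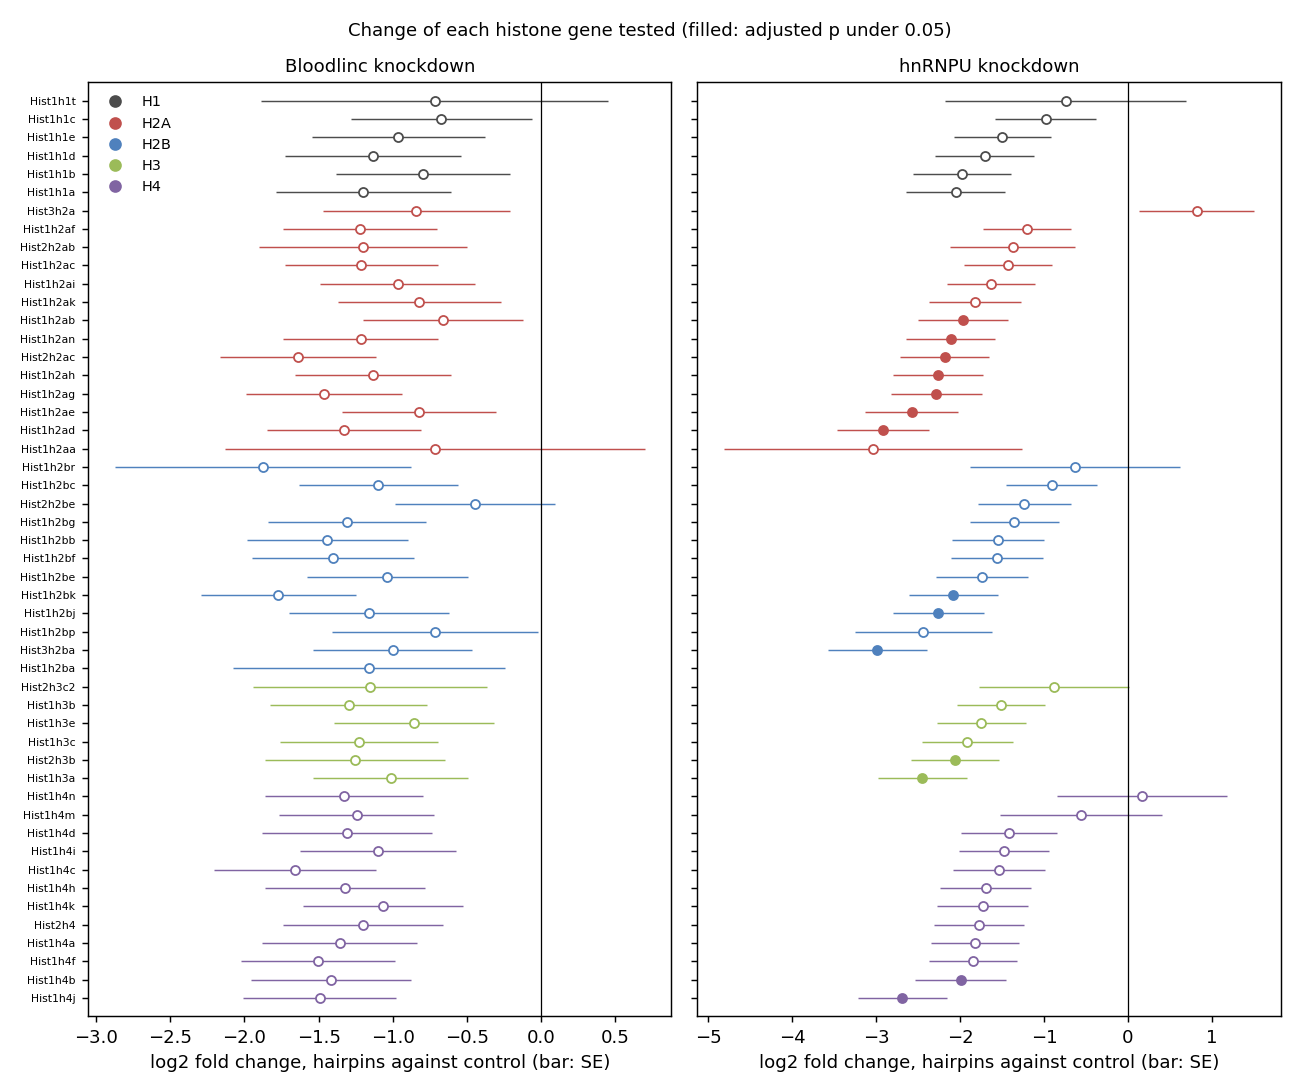
Log2 fold change of each tested histone gene (y axis, coloured by class) in the Bloodlinc and hnRNPU knockdowns (x axes, of different range), with its standard error as a bar; filled points passed at an adjusted p under 0.05. Hist1h2ba is left out on the right because it had 0 counts with both hnRNPU hairpins. All points on the left lie below 0 and none is filled, and 14 on the right are filled.

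H1 histones bind the linker DNA between nucleosomes, and their genes took 33.6% to 49.7% of all histone counts, the largest share of any class in every library, before any scaling for length. All 6 annotated H1 genes were matched, but only 13 of 18 for H2B and 7 of 12 for H3. The median share of coding 50-base words found in no other gene was 89.0% for H1 and 4.46% to 28.3% for the other classes. The part of unmatched genes and shared sequence in this ranking was not tested. Hist1h1c (ENSMUSG00000036181, chr13:23738808-23740367) stood at 328 TMM CPM in the Bloodlinc control library and at 213 and 199 with its hairpins, a log2 fold change of −0.67 (SE 0.61). In the hnRNPU set it stood at 2297 with the control and at 1279 and 1051 with the hairpins, a log2 fold change of −0.98 (SE 0.60; edgeR adjusted p = 0.636). The hairpin libraries lay below their own control in both sets, but both hnRNPU hairpin libraries lay above the Bloodlinc control library. Hist1h1a was at 964 TMM CPM and at 432 and 408 in the Bloodlinc set, and at 1219, 180.3 and 407 in the hnRNPU set. Its log2 fold changes were −1.20 (SE 0.59) and −2.05 (SE 0.59; edgeR adjusted p = 0.0575), the lowest of the class in both knockdowns. Hist1h1b, at 481, 302 and 253 in the Bloodlinc set and 1324, 199 and 473 in the hnRNPU set, had log2 fold changes of −0.79 (SE 0.59) and −1.98 (SE 0.58). Hist1h1d and Hist1h1e lay between, at −1.13 and −0.96 in the Bloodlinc knockdown and −1.70 and −1.50 in the hnRNPU knockdown. Hist1h1t, the testis linker histone, was at 1.18 TMM CPM or less in all 8 libraries. Per kilobase of exon in the hnRNPU control library, Hist1h1b (1782) and Hist1h1a (1645) were above Hist1h1c (1472) and Hist1h1e (660.0), and Hist1h1d was at 193 over an annotated exon length of 7425 bases.

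H2A, which pairs with H2B in the nucleosome, had 7 of its 14 tested genes called in the hnRNPU knockdown. Some of these copies share most of their coding sequence with others, as given below. Hist1h2ad (ENSMUSG00000071478, chr13:23574381-23574952) stood at 127 TMM CPM with the hnRNPU control and at 15.96 and 17.7 with the hairpins, a log2 fold change of −2.92 (SE 0.54; edgeR adjusted p = 9.23e-05). In the Bloodlinc set it was at 237 with the control and at 75.5 and 113 with the hairpins, a log2 fold change of −1.33 (SE 0.52; edgeR adjusted p = 0.781). Hist1h2ae fell from 53.5 to 8.87 and 9.06 in the hnRNPU set (log2 fold change −2.58, SE 0.56, edgeR adjusted p = 0.00177). Hist1h2ag fell there from 116 to 17.1 and 29.9 (−2.28, SE 0.54), and Hist1h2ah from 109 to 13.003 and 31.5 (−2.26, SE 0.54). Hist2h2ac, whose stem-loop version was in no other of the 54 genes, fell from 306 to 47.3 and 87.1 in the hnRNPU set (−2.18, SE 0.53, edgeR adjusted p = 0.0112). It stood at 141, 46.7 and 43.6 in the Bloodlinc set (−1.64, SE 0.53). Hist1h2an and Hist1h2ab also fell in the hnRNPU set, with log2 fold changes of −2.11 and −1.96. Hist1h2ak, the H2A gene of highest mean CPM in the 3 control libraries, was at 463, 91.6 and 170.2 in the hnRNPU set and did not pass (−1.82, SE 0.54, edgeR adjusted p = 0.0853). Hist3h2a was at 11.3 with the hnRNPU control and at 31.9 and 8.67 with the hairpins, so that hairpin 1 alone placed its estimate above 0 (0.82, SE 0.68, and −0.39 without that library).

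H2B genes passed in the hnRNPU knockdown in 3 of 12 cases. Hist3h2ba (ENSMUSG00000056895, chr11:58948920-58949533) fell from 46.7 TMM CPM with the control to 1.18 and 9.85 with the hairpins (log2 fold change −2.98, SE 0.59, edgeR adjusted p = 0.000291). Its value with hairpin 1 was below the floor of that library. In the Bloodlinc set it stood at 73.5, 45.4 and 28.1. Hist1h2bj fell in the hnRNPU set from 335 to 40.8 and 98.5 (−2.26, SE 0.54), and Hist1h2bk from 271 to 42.0 and 85.5 (−2.08, SE 0.53). Hist1h2bk also had the smallest unadjusted p of the 50 genes in the Bloodlinc knockdown (0.000768), at 96.0, 30.7 and 25.5, a log2 fold change of −1.77 (SE 0.52) whose edgeR adjusted p was 0.248. Hist1h2bf, Hist1h2bb and Hist1h2be had the highest mean CPM of the class in the control libraries, and had log2 fold changes of −1.56, −1.54 and −1.73 in the hnRNPU knockdown without passing. Hist1h2ba was at 2.05 TMM CPM (hnRNPU control) and at 0 counts with both hnRNPU hairpins, whose floors are 1.77 and 1.18, so no fold is given for it.

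H3 and H4 form the tetramer at the centre of the nucleosome. Hist1h3a fell from 189.6 TMM CPM with the hnRNPU control to 22.5 and 46.5 with the hairpins (log2 fold change −2.45, SE 0.53, edgeR adjusted p = 0.00161), and stood at 83.3, 36.2 and 46.3 in the Bloodlinc set (−1.01, SE 0.52). Hist2h3b fell from 183 to 36.1 and 51.2 in the hnRNPU set (−2.06, SE 0.52, edgeR adjusted p = 0.0172). Hist1h3c, Hist1h3e and Hist1h3b had log2 fold changes of −1.91, −1.75 and −1.51 there and of −1.23, −0.85 and −1.30 in the Bloodlinc knockdown, and passed in neither. Hist2h3c2 was at 7.07 TMM CPM or less in all 8 libraries.

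All 12 H4 genes of the files encode 1 protein from 11 distinct coding sequences. In the Bloodlinc knockdown H4 had the lowest class median, and 12 of its 12 genes were lower at an unadjusted p under 0.05, against 1.26% of all genes. Hist1h4c stood at 235 TMM CPM with the Bloodlinc control and at 75.8 and 73.3 with the hairpins (log2 fold change −1.66, SE 0.55, edgeR adjusted p = 0.481). Hist1h4f stood at 74.5, 28.7 and 23.9 (−1.50, SE 0.52). In the hnRNPU knockdown Hist1h4j (ENSMUSG00000067455, chr13:21735064-21735837) fell from 259 to 24.8 and 54.8 (−2.69, SE 0.53, edgeR adjusted p = 0.000259), and Hist1h4b from 380.3 to 74.5 and 116 (−1.99, SE 0.54, edgeR adjusted p = 0.0389). These 2 genes are also the 2 of the 54 whose stem begins GGTCC, a match noticed after their values were seen. Hist1h4d, at 823 with the hnRNPU control the highest CPM of the class there, was at 274 and 342 with the hairpins and did not pass (−1.42, SE 0.57).

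The 2 hairpins of a target did not order the classes alike. In the Bloodlinc set, hairpin 2 was the lower of the 2 in 12 of 12 H4 genes, while hairpin 1 was the lower in 11 of 14 H2A genes; over all genes tested it was the lower in 50.5%. The class medians against the control were −1.16 and −1.54 for H4, and −1.33 and −0.92 for H2A, with hairpins 1 and 2. In the hnRNPU set, hairpin 1 was the lower in 45 of 50 genes, with medians of −2.19 and −1.45, and over all genes in 47.9%, with medians of −0.28 and −0.12. The difference between the knockdowns was tested as a contrast, and 0 of 50 genes passed, with a smallest edgeR adjusted p of 0.828. At an unadjusted p under 0.05 there were 3 of the 50, against 631 of all 15355 genes. Of all genes, 0.326% were called in that contrast, and DESeq2 called 0 of the histone genes. The genes that fell in the hnRNPU knockdown alone are therefore not shown to respond differently to Bloodlinc hairpins.

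**Figure D3:**
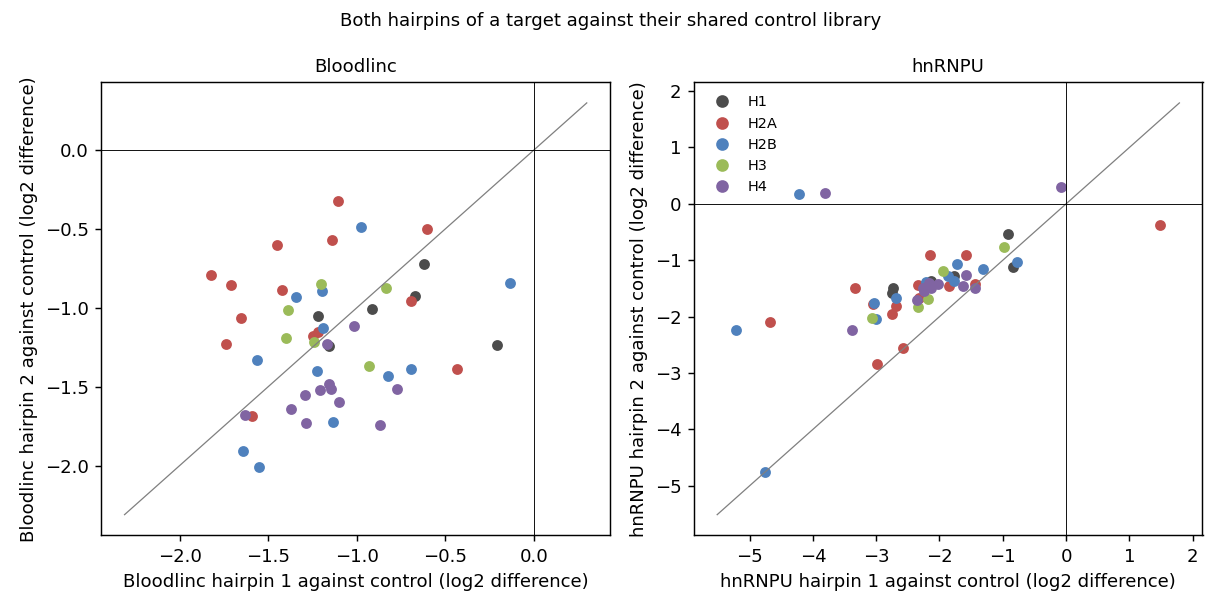
Log2 difference of each tested histone gene from the control library with hairpin 1 (x axis) and hairpin 2 (y axis), for each target, coloured by class; the grey line marks equal values and each panel shares 1 control library on both axes. All 12 H4 genes lie below the line in the Bloodlinc panel, and 45 of 50 genes lie above it in the hnRNPU panel.

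Overexpression of Bloodlinc was measured with 1 library per arm and has no replicate check. Of the 50 genes, 44 were higher with the Bloodlinc vector, against 51.3% of all genes, but the median log2 difference was 0.11, against 0.01 over all genes tested. More than 1.5-fold higher was 1 of 50, against 2.32% of all genes. That gene was Hist1h1t, named after its value was seen, at 0.387 and 0.677 TMM CPM. At a mean CPM of at least 5, 40 of 45 histone genes were higher, against 59.9% of 8633 genes, with medians of 0.11 and 0.03. At that level 0 of the 45 were more than 1.5-fold higher, against 0.139% of the 8633. Hist1h1c went from 577 to 689, a log2 ratio of 0.26 (95% exact counting interval, 0.23 to 0.28), and Hist1h4d went from 313 to 320.5. All 12 H4 genes and all 6 H1 genes were higher, by medians of 0.14 and 0.16. These intervals cover counting error only.

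The control libraries were compared with each other, since each knockdown rests on 1 of them. From the hnRNPU control to the empty vector library, all 50 genes were lower, while 51.2% of all genes tested were higher. The median log2 difference was −1.81 with an SD over genes of 0.48, against a median of 0.03 and an SD of 1.02 over all genes tested. That is the size of the hnRNPU knockdown (−1.74), seen between 2 libraries that carry no hairpin against either target. From the hnRNPU control to the Bloodlinc control library the median was −0.75, but single genes ranged from −6.57 to 7.29, with an SD of 2.22. Over all genes tested the median there was −0.08, the range −9.97 to 9.23 and the SD 1.28. Across the 50 genes, log2 CPM of the empty vector and hnRNPU control libraries correlated with Pearson's r = 0.987, and of the Bloodlinc and hnRNPU control libraries with r = 0.687. Over 12835 protein-coding genes the same pairs gave 0.955 and 0.947. These are descriptions across genes, which share libraries and sequence.

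**Figure D4:**
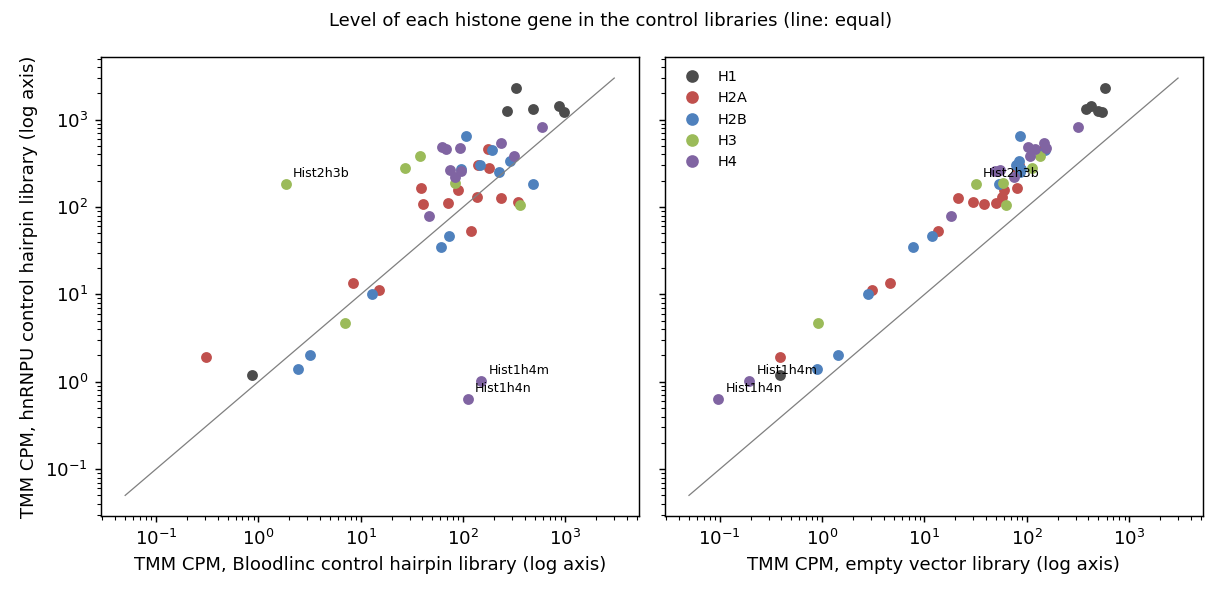
TMM CPM of each tested histone gene in the hnRNPU control hairpin library (y axis, log) against the Bloodlinc control hairpin library (left) and the empty vector library (right; x axes, log), coloured by class; the line marks equal levels. On the right all 50 genes lie above the line in a narrow band, and on the left Hist1h4m, Hist1h4n and Hist2h3b lie far from the rest.

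The scatter came from individual copies more than from classes. Hist1h4m (chr13:21811746-21812147) stood at 151, 82.4 and 45.1 TMM CPM in the 3 Bloodlinc knockdown libraries, and at 1.18 or less in the other 5. Hist1h4n (chr13:21831767-21832196) stood at 111, 51.7 and 36.7 in those 3 and at 0.788 or less in the other 5. Hist2h3b (chr3:96268654-96269141) did the reverse, at 1.85, 0.657 and 0.875 in those 3 and at 31.5 to 183 in the other 5. Between the 3 Bloodlinc knockdown libraries and the 3 other deep libraries, the nearest values were 44.0-fold apart for Hist1h4m, 58.3-fold for Hist1h4n and 17.1-fold for Hist2h3b. These 3 of 50 genes (6%) were over 4-fold apart, against 6.1% of all genes, and 14 of 50 did not overlap at all, against 48% of all genes. By these 2 counts, the share of histone genes that separate these libraries is no larger than among genes at large. The counts also depend on the spread inside each set of libraries, which was not matched between histone and other genes. The SD of the log2 difference between the 2 control hairpin libraries was 2.22 over the histone genes and 1.28 over all genes tested. The cause of the separation was not tested, and the labels name no batch.

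These 3 genes have near-identical copies. The coding sequences of Hist1h4m and Hist1h4n are the same over all 309 bases, and that of Hist2h3b differs from Hist2h3c2 by T21C alone (Hist2h3c2 has the first base, counted from 1 at the start codon). None of their coding 50-base words is unique to 1 gene among GENCODE M21 transcripts. Hist1h3c and Hist1h3b differ at 6 of 408 coding bases, and lay on opposite sides: Hist1h3c was at 357 TMM CPM in the Bloodlinc control and at 105 in the hnRNPU control, and Hist1h3b was at 27.0 and 282. Over the 54 genes the median share of unique coding 50-base words was 23.7%; for H1 genes it was 73.5% to 100%. Among the 25 genes with the least unique coding sequence, the median distance of the difference between the control hairpin libraries from the overall median was 1.31 on the log2 scale, and it was 0.70 among the 25 with the most. Between the empty vector and hnRNPU control libraries the order was the reverse, at 0.25 and 0.29. The median log2 fold changes of these 2 sets were −1.24 and −1.10 for Bloodlinc and −1.73 and −1.75 for hnRNPU. Of the genes that fell in the hnRNPU knockdown, Hist1h2ad, Hist1h2ag and Hist2h3b had 0% unique coding words. Hist1h4b had 1.54%, Hist1h2ah 3.58% and Hist1h2bk 3.95%. The others that fell had 13.5% (Hist1h2an) to 62.0% (Hist3h2ba). Values of single copies are uncertain where reads could fall on more than 1 copy. Alignments that were not unique numbered 33959690 to 54392560 per library and were not counted in any gene. In the hnRNPU set they numbered 41612733 with the control and 54392560 and 35679838 with hairpins 1 and 2. Their part on histone genes is not known. Summed over all 12 H4 genes, the log2 difference of the Bloodlinc from the hnRNPU control hairpin library was −1.06, while the single genes ran from −2.97 to 7.29.

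**Figure D5:**
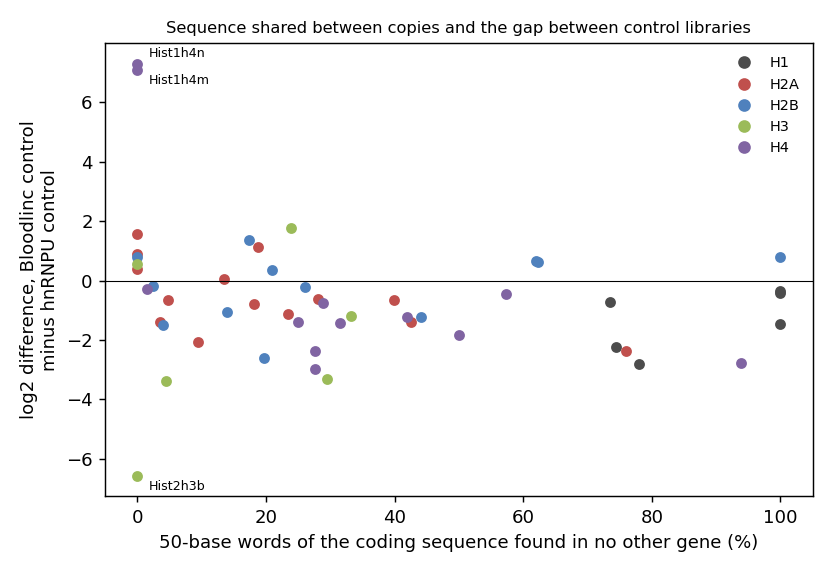
Log2 difference between the Bloodlinc and hnRNPU control hairpin libraries (y axis) against the percentage of each gene's coding 50-base words found in no other gene (x axis), coloured by class. Hist1h4n and Hist1h4m (7.29 and 7.10) and Hist2h3b (−6.57), all at 0% unique, are the farthest from 0.

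The classes also took different parts of the histone counts in the Bloodlinc set. H2A took 15.6% to 21.5% of histone counts in the 3 Bloodlinc knockdown libraries and 9.21% to 12.7% in the other 5, and H2B took 19.004% to 19.9% and 12.2% to 15.2%. H1 took 33.6% to 37.3% and 43.7% to 49.7%. These ranges do not overlap, while those of H3 (5.70% to 6.09% and 5.14% to 7.58%) and H4 (17.1% to 22.4% and 21.4% to 23.2%) do. Within the hnRNPU set, the hairpins left the order of the classes as in the control.

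H2A and H2B genes with starts under 1000 bases apart on opposite strands formed 12 pairs, 176 to 306 bases apart, and 8 pairs had both genes tested. In all 8 pairs both genes had estimates below the control in both knockdowns, as had 50 and 48 of all 50 tested genes for Bloodlinc and hnRNPU. The pair of Hist1h2aa and Hist1h2ba had only 0 or 1 counts per gene in the hnRNPU hairpin libraries. Both genes of 2 pairs fell in the hnRNPU knockdown: Hist1h2ag with Hist1h2bj (−2.28 and −2.26), and Hist1h2ah with Hist1h2bk (−2.26 and −2.08). In 4 pairs only the H2A gene fell: in the Hist1h2ad and Hist1h2bf pair the changes were −2.92 and −1.56, and in the Hist1h2ae and Hist1h2bg pair, whose shared octamer is printed above, −2.58 and −1.35. The difference within pairs was not tested.

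Transcript length was examined after the values were seen. The 12 tested genes with an annotated transcript over 1000 bases, among them Hist1h1c, Hist1h2bc and Hist2h2be, had a median of −1.33 in the hnRNPU knockdown and none of them fell. The 38 with shorter transcripts had a median of −1.94, and 14 fell. In the Bloodlinc knockdown the medians were −1.11 and −1.22. No test was made of this grouping.

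Other genes of the pathway were read in the same fit. Of the 9 tested genes listed as histones that are made outside S phase as well, 1 fell in the hnRNPU knockdown. This was H2afx, the H2A variant phosphorylated at DNA breaks, at 887 TMM CPM with the control and at 136 and 231 with the hairpins (log2 fold change −2.27, SE 0.57, edgeR adjusted p = 0.0156). The medians of the list were −0.36 for Bloodlinc and −0.59 for hnRNPU. H3f3a and H3f3b, which encode the replacement histone H3.3, had log2 fold changes of −0.85 and −0.15 for Bloodlinc and of −0.75 and −0.55 for hnRNPU. None of the 16 genes of histone mRNA 3′ end processing and turnover passed, with medians of −0.10 and −0.53. Slbp, whose product binds the stem-loop, was at 874, 473 and 438 TMM CPM in the Bloodlinc set and at 326, 95.8 and 124 in the hnRNPU set, log2 fold changes of −0.94 (SE 0.57) and −1.57 (SE 0.57; edgeR adjusted p = 0.233). None of the 17 histone chaperones and import factors passed, with medians of −0.22 and −0.86.

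None of the 35 genes of S phase and DNA replication passed in either knockdown. Their medians were −0.42 for Bloodlinc and −1.31 for hnRNPU, with 34 and 35 of the 35 estimates below 0, against 6850 and 8197 of all 15355 genes. Of the 35, 3 and 29 were lower at an unadjusted p under 0.05, against 1.26% and 4.86% of all genes. Rrm2, a subunit of ribonucleotide reductase, stood at 1532, 896 and 413 TMM CPM in the Bloodlinc set and at 1192, 416 and 527 in the hnRNPU set. Pcna, the sliding clamp of DNA polymerases, stood at 1106, 1111 and 582, and at 478, 138 and 194. With Bloodlinc hairpin 1 the S phase genes had a median of −0.11 and the histone genes −1.19, while with hairpin 2 the medians were −0.91 and −1.21. The difference between the lists was not tested. The 5 non-polyadenylated RNAs, such as the 7SK RNA Rn7sk, had medians of −0.65 and −0.24, and none passed.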

How the data were processed

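The 8 libraries, in 6 groups, were made from total RNA after ribosomal RNA removal, with strand marking by dUTP, per the labels' protocols. The submitters' processing notes name TopHat2 2.0.11, the build mm9 and HTSeq. The annotation release and strand setting are not given in the sources used here. The authors deposited raw counts per gene, with 5 summary entries kept out of library sizes and tests. GENCODE M21 (GRCm38) matched 87.45% of the IDs and gave classes, positions and transcripts. Coordinates are those of GRCm38, not of the build of the counts.

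Counts were fitted with edgeR 4.0.16 (R 4.3.3): all libraries in 1 quasi-likelihood fit, TMM scaling, filterByExpr, and Benjamini-Hochberg adjustment over 15355 genes with a threshold of 0.05. Only the hairpin pairs repeat a group, which left 2 residual degrees of freedom, and single control libraries were assumed to vary like them. The common dispersion was 0.145. For single libraries, log2 differences were taken after adding a prior count of 2. The overexpression pair has exact conditional binomial 95% intervals and no test. Members named were those highest in the controls per class, those that passed with the largest changes or else had the smallest p, those above the control, and all of H1 and H3. Members, gene lists and naming rule were chosen with earlier results of these data known.

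Unique words were counted against GENCODE transcripts, since no genome sequence was used here. Motifs and pairs were found by exact search. The fit was tested on simulated data. Alternatives were other scalings, filters, gene sets and control libraries, DESeq2 1.42.0, and each hairpin library left out. Intervals and floors of 3 counts cover counting error only.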

Additional observations from a re-analysis of the deposited data

Results flagged for a closer look

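Summed neutrophil and mast cell markers moved in opposite directions from the control in the 2 knockdowns. The difference between the knockdown effects passed edgeR's test for 3 of 9 neutrophil genes, against 0.326% of all genes. It was 3.51 for S100a8, 3.35 for Camp and 4.20 for Ngp on the log2 scale (hnRNPU minus Bloodlinc). Summed over the 9 neutrophil genes, the log2 difference from the control library was −1.28 and −0.926 with Bloodlinc hairpins 1 and 2, and 2.52 and 1.09 with hnRNPU hairpins 1 and 2. Summed over 4 mast cell and basophil genes it was −1.09 and −1.09 with the Bloodlinc hairpins, and 0.878 and 1.08 with the hnRNPU hairpins. None of these 4 genes passed the test of the difference, with a smallest edgeR adjusted p of 0.0999 (Mcpt8). Their sums were 3.73 to 46.9 TMM CPM in the 8 libraries. The differences of these sums were not tested. Other lists did not show this: summed megakaryocyte markers were at 35.6 TMM CPM with the Bloodlinc control and at 29.7 and 78.4 with its hairpins, and at 52.6, 92.8 and 66.6 in the hnRNPU set, and macrophage markers at 4.10, 3.38 and 24.5, and at 21.2, 75.7 and 30.7. Histone genes were lower with all 4 hairpins by their class sums.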

How the results depend on the processing

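No paired analysis was possible because the control libraries carry no replicate number and share none with the hairpins. The Bloodlinc count of called histone genes was 0 in every setting run except the other control hairpin library (30, where 1043 of all genes were called, against 19). The hnRNPU count of 14 was 0 to 9 when 1 hairpin library was left out, 0 with the 3 control libraries pooled, 8 with the 3 libraries of the comparison alone, 9 with DESeq2, and 7 without the 3 Bloodlinc knockdown libraries, a setting chosen after seeing the data. The Bloodlinc median of −1.20 was −1.23 with DESeq2 size factors and with DESeq2, −1.21 without the filter and without mitochondrial rRNA and unmatched IDs, −1.22 over protein-coding genes, −1.18 without both hnRNPU hairpin libraries (also chosen after seeing the data), and −1.18 to −1.20 with 1 hairpin library left out; it was −1.87 against the other control hairpin library and −1.30 against the pooled controls. The hnRNPU median of −1.74 was −0.73 and −1.01 against those 2. DESeq2 size factors and upper quartile scaling moved the median of all genes in the hnRNPU knockdown from −0.09 to 0.03 and 0.07. Turns of sign are listed only for the genes picked by the naming rule. Against the other control hairpin library, log2 fold changes of these genes turned sign in the Bloodlinc knockdown for Hist1h2ag (0.10), Hist1h2ae (0.32), Hist1h2be (0.34), Hist1h3c (0.54) and Hist1h4n (6.12), and in the hnRNPU knockdown for Hist1h1c (1.83), Hist1h1e (0.76), Hist1h2bf (1.06), Hist1h3e (1.59), Hist1h3b (1.87), Hist2h3b (4.57) and Hist1h4n (−7.29). Of all 50 tested genes, 43 in the Bloodlinc and 39 in the hnRNPU knockdown had estimates below 0 there, against 50 and 48 in the main fit. Against the pooled controls, the signs of genes picked by that rule turned for Hist1h2ae (0.11) and Hist1h4n (0.25) in the Bloodlinc knockdown and for Hist1h1c (0.13) and Hist1h4n (−5.71) in the hnRNPU knockdown. Of all 50 tested genes, 46 and 48 had estimates below 0 in that setting. Without hnRNPU hairpin 1 or 2, the hnRNPU estimate of Hist3h2a was −0.39 or 1.49, and that of Hist1h4n 0.31 or −0.095. As a share of all counts in genes, histone counts were 0.708%, 0.377% and 0.447% in the Bloodlinc knockdown libraries, 0.687% and 0.762% with the empty and Bloodlinc vectors, and 1.95%, 0.274% and 0.633% in the hnRNPU libraries. With hnRNPU hairpins 1 and 2, 32.94% and 23.09% of the counts in genes lay on IDs absent from the annotation. The other 6 libraries had 0.695% to 1.449%. Such counts enter the total of all counts in genes but not that of protein-coding genes. The median share of unique exon words rose from 50.4% to 67.5% with words of 100 bases. Beyond what a setting changes by construction, the cause of these shifts was not tested. Depth limits the hnRNPU hairpin libraries, where 3 counts equal 1.77 and 1.18 TMM CPM.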
